A study of Mus musculus with 8 samples.

Results

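The histone acetyltransferase p300 was mapped by ChIP-seq in C2C12 cells, a C3H mouse line of myoblasts able to form myotubes when serum is withdrawn, and 1844 of the 22051 intervals called in untreated cells lay at promoters and were not met by any interval called in cells given bexarotene. These control-only promoter peaks were chosen by 2 measured properties: no overlap of at least 1 bp with an interval of the bexarotene p300 list, and a center within 1 kb of the transcription start site (TSS) of a protein-coding transcript. Both p300 samples were differentiated for 24 h in horse serum medium, without bexarotene (control, Ctl) or with 50 nM bexarotene (Bex), a synthetic agonist selective for the retinoid X receptor (RXR), added when differentiation was induced. Myogenin was mapped in cells treated the same way. Each factor had 1 library per condition, so that no test between conditions was possible, no p-value is given, and the 95% Wilson intervals of shares cover counting error over peaks only. The lists hold positions without tag counts or scores, and the p300 list of bexarotene-treated cells was the shorter, with 9154 intervals. Sequencing depth is unknown from them, so that a lower p300 occupancy, a shallower library and a peak just under the authors' threshold cannot be told apart.

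p300 and its close relative CBP are coactivators without sequence-specific DNA binding of their own. They are brought to promoters and enhancers by transcription factors, acetylate histone tails and other proteins there, and support transcription. In skeletal muscle p300 works with the myogenic factors MyoD and myogenin, which bind E-boxes as dimers with E proteins, while RXR binds direct repeats of a short hormone response core as a partner of other nuclear receptors.

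Sequence around the center of the named peaks is printed here from the mm9 genome, in the direction of the gene, for windows free of annotated coding transcript exons. Capitals mark every match to a consensus searched, on either strand. Muscle genes come first, picked for the letters in their windows, which the other sarcomere genes with a peak lack: an AP-1 heptamer and a CArG box in front of Ldb3, which encodes a protein of the sarcomeric Z-disc, and E-boxes flanking a MEF2 consensus inside Tnnc2, which encodes fast skeletal troponin C. The window of Eya1, a coactivator in muscle precursors, holds an E-box, an AP-1 match and a TGACG match, and that of Jam2, an adhesion molecule, holds an E-box.
Ldb3, mm9 chr14:35401885-35401984, minus strand: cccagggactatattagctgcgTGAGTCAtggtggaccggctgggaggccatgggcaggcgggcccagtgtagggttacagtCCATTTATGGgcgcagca
Tnnc2, mm9 chr2:164604505-164604704, minus strand: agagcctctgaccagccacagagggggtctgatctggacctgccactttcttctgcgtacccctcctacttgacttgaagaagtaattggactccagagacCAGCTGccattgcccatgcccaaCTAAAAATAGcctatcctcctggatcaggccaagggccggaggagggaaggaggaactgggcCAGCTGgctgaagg
Eya1, mm9 chr1:14300299-14300398, minus strand: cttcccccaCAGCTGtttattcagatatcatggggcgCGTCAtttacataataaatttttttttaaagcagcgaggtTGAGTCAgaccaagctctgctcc
Jam2, mm9 chr16:84775229-84775428, plus strand: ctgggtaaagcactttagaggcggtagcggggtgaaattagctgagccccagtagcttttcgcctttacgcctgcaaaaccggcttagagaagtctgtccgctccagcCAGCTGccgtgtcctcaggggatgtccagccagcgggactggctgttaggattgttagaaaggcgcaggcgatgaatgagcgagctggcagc

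The second set was chosen because its genes act in retinoid and nuclear receptor signaling, the pathway that bexarotene enters. Dhrs3 reduces retinaldehyde to retinol, Pparg is an RXR partner, and Ncor1 is a nuclear receptor corepressor. The Pparg window is the only one of these 3 with AGGTCA, the core of a nuclear receptor element.
Dhrs3, mm9 chr4:144482282-144482481, plus strand: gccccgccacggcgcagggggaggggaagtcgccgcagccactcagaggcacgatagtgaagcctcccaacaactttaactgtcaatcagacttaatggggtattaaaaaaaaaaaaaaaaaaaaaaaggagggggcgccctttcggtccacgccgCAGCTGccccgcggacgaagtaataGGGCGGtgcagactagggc
Pparg, mm9 chr6:115371052-115371251, plus strand: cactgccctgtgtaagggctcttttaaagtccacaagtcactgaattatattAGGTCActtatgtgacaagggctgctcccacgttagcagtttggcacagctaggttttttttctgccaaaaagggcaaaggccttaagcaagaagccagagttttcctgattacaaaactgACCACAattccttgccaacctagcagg
Ncor1, mm9 chr11:62269974-62270173, minus strand: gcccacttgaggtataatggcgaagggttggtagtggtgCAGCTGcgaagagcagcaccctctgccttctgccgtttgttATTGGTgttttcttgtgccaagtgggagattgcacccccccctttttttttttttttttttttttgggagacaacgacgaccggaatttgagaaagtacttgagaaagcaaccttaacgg

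The last set holds a peak that myogenin intervals of both conditions overlapped, at Rdh5, which encodes a retinol dehydrogenase, and the 2 control-only promoter peaks whose windows match DR1, the direct repeat bound by RXR heterodimers. Scd4, a stearoyl-CoA desaturase gene, and Ccdc141 were picked for that match after their values were seen.
Rdh5, mm9 chr10:128357175-128357374, minus strand: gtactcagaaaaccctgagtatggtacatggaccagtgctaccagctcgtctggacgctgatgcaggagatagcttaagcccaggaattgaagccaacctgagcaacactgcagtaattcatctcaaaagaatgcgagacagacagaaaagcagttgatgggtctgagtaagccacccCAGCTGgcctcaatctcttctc
Scd4, mm9 chr19:44406600-44406799, plus strand: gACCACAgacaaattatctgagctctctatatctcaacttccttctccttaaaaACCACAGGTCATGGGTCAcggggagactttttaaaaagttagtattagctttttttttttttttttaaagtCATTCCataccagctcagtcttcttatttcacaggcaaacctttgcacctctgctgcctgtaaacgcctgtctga
Ccdc141, mm9 chr2:77009487-77009686, minus strand: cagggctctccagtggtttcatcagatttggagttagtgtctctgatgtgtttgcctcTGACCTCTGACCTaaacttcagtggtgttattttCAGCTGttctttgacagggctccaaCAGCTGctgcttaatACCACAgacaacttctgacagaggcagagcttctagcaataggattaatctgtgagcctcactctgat

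Peaks called only in control made up most of the control p300 peaks at promoters. Of 2429 control intervals centered within 1 kb of a TSS, 1844 were not overlapped in bexarotene, which is 75.9% (95% interval 74.2 to 77.6). The same held for 67.3% of all 22051 control intervals and for 66.3% (65.6 to 66.9) of the 19622 distal ones, a comparison that the choice of members fixes in part and that is given as a description. Promoters took 12.4% (11.9 to 13.0) of the control-only intervals and 8.12% (7.51 to 8.78) of the shared ones. Over the whole lists they took 11.0% (10.6 to 11.4) of the control and 12.4% (11.7 to 13.1) of the bexarotene intervals. Their share of bexarotene-only intervals was not counted, so that control-only intervals are not shown to be the class richest in promoters. In the other direction, 553 of 1132 bexarotene promoter intervals, 48.9%, met no control interval.

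Interval length, the only measure of size in the lists, moved with this share. The median control-only promoter peak was 159 bp long, the smallest length the control list holds, and 62.6% (60.4 to 64.8) of the 1844 were of that length, against 26.2% (22.8 to 29.9) of the 585 shared promoter peaks and 43.9% (43.0 to 44.7) of the 13005 control-only distal peaks. Among smallest intervals, 88.3% (86.4 to 89.9) of promoter and 91.3% (90.5 to 91.9) of distal control peaks were control-only. Among longer intervals of up to 300 bp the shares were 69.5% and 71.5%. Above 300 bp they were 42.9% (37.8 to 48.2) and 37.1% (35.9 to 38.2). Within length classes the order of promoter and distal peaks was thus not constant, and the higher share at promoters overall went with the larger proportion of smallest intervals there, 1308 of 2429 against 6254 of 19622.

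**Figure D1:**
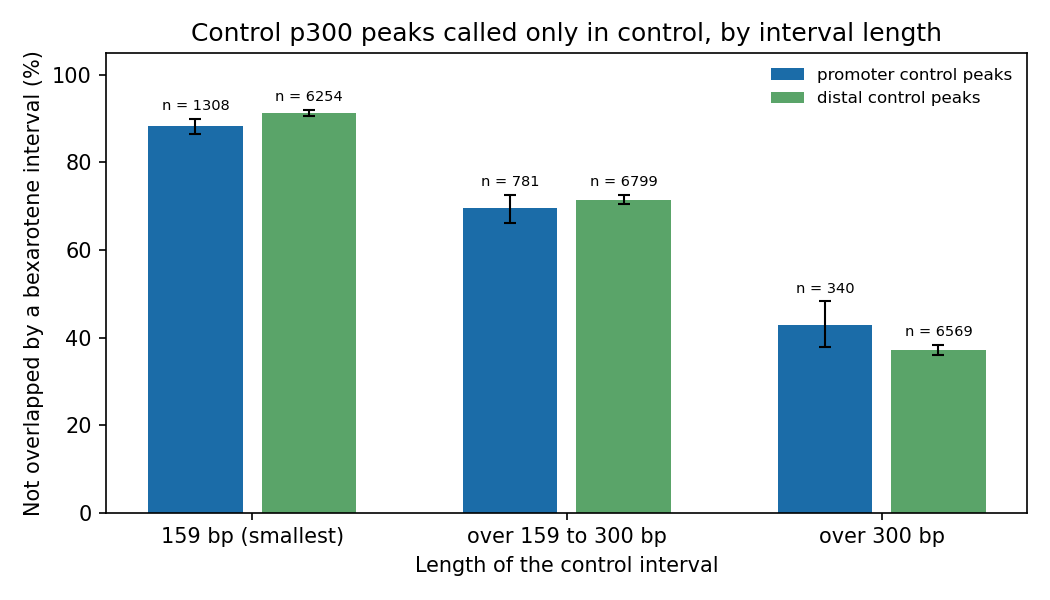
Share of control p300 intervals not overlapped by a bexarotene interval (%, y axis) by length of the control interval (x axis), for promoter and distal intervals, with 95% Wilson intervals. The share fell from 88.3% to 42.9% at promoters and from 91.3% to 37.1% at distal sites as the intervals became longer.

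The longest of the 1844 lay at Sec16b, an endoplasmic reticulum export gene, where a control interval of 857 bp was centered 330 bp downstream of a TSS. The other long ones named were at Tes3-ps (728 bp), Gm17252 (664 bp), Ogn (660 bp), a small leucine-rich proteoglycan gene, Rhobtb2 (642 bp), Gm9875 (637 bp), Ahnak (631 bp), which encodes a giant scaffold protein, and Pik3r1 (622 bp), the regulatory subunit of PI3 kinase. At Ahnak, Pik3r1 and Ogn the nearest bexarotene interval lay 129, 96 and 276 bp away. Sec16b, Ogn and Pik3r1 also had a bexarotene-only promoter peak, and Ahnak had a shared one. At Rhobtb2 the nearest bexarotene interval lay 153496 bp away.

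At the edges of the rule, the peaks at Cpeb4 and Rrm1 were just inside the 1 kb limit, 1000 and 991 bp downstream of the TSS, and intervals near Ap4e1 and Gm11147 were just outside it at 1001 bp upstream and downstream. The control-only peak at Snrnp35 abutted a bexarotene interval with a gap of 0 bp, and that at Polr3e was 2 bp from one. The shared peaks with the shortest overlaps were at Ikzf5 (6 bp) and Cyp51 (9 bp).

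Control-only promoter peaks lay around the TSS with a median center 14 bp upstream of it, and more of them lay downstream than of shared promoter peaks. Of the 1844, 40.8% (38.6 to 43.0) had their center within 100 bp of the TSS, against 45.6% (41.6 to 49.7) of shared and 52.3% (48.1 to 56.4) of bexarotene-only promoter peaks. Downstream of the TSS lay 45.6% (43.3 to 47.9), against 32.6% (29.0 to 36.6) of shared and 36.9% (32.97 to 40.99) of bexarotene-only peaks. Between 100 and 400 bp downstream the shares were 14.9% (13.4 to 16.6), 7.52% (5.65 to 9.95) and 10.8% (8.52 to 13.7).

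The higher downstream share than in shared peaks was present in both length classes. Among smallest intervals, 47.4% (44.5 to 50.2) of control-only and 28.8% (22.2 to 36.4) of shared peaks were downstream, and among longer ones 42.7% (39.0 to 46.4) and 34% (29.7 to 38.6). Bexarotene-only peaks had 37.5% (33.1 to 42.2) and 34.7% (26.9 to 43.4) downstream, the latter with an interval that overlaps that of control-only peaks. By the annotation of protein-coding transcripts, the centers of 38.6% of the 1844 lay upstream or between genes, 29.2% in a 5′ UTR, 25.2% in an intron, 6.62% in a coding exon and 0.38% in a 3′ UTR. Shared promoter peaks lay more often upstream or between genes, at 48.4% (44.4 to 52.4) against 38.6% (36.4 to 40.9).

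**Figure D2:**
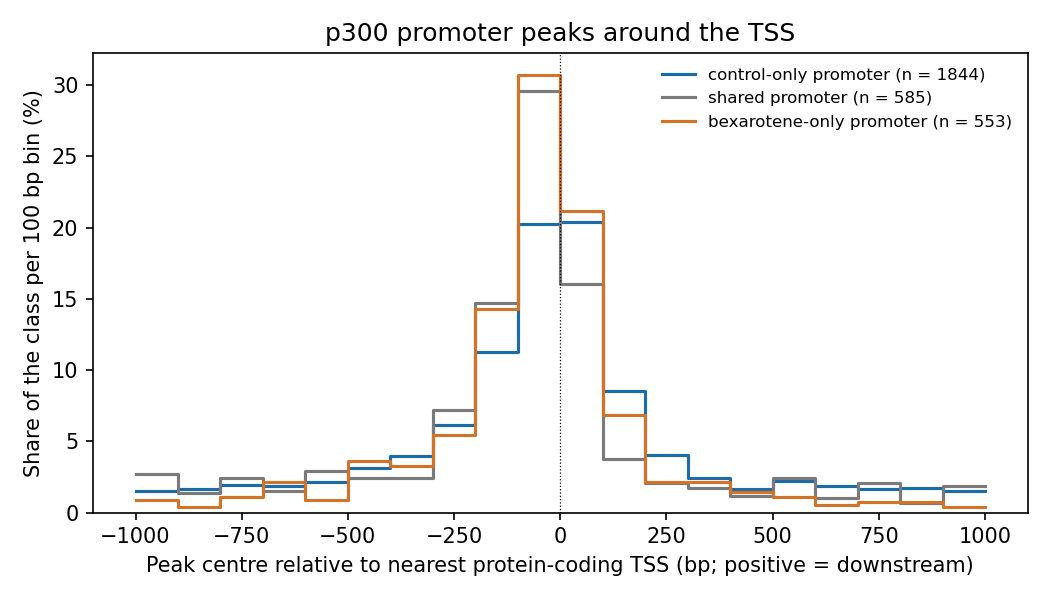
Distribution of p300 peak centers around the nearest protein-coding TSS (x axis, bp, positive downstream) as the share of each class per 100 bp bin (y axis, %). Shared and bexarotene-only peaks were most frequent in the 100 bp upstream of the TSS, whereas control-only peaks were about as frequent in the 100 bp on either side.

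The peaks fell within 1 kb of a TSS of 1849 of 22378 protein-coding genes, 8.26%, which is the background for all counts over gene lists. With only intervals longer than the smallest of each interval list, this share of genes was 4.09%. Shared promoter peaks reached 600 genes and bexarotene-only promoter peaks 599. Most genes with a control-only peak, 1697 or 91.8% (90.4 to 92.9), had no p300 promoter interval in bexarotene, a share below the 94.8% of all protein-coding genes and fixed in part by the choice of peaks. A shared peak also lay at 70 of them and a bexarotene-only peak at 90, which is 4.87% of the 1849 and 15% of the 599. The 100 control-only peaks at genes with a bexarotene-only promoter peak had a median gap of 212 bp to the nearest bexarotene interval, against 51983 bp for all 1844, a short gap that their choice largely fixes. A bexarotene interval lay within 10 kb of 21.4% (19.6 to 23.3) of control-only promoter peaks and of 29.8% (29.0 to 30.6) of control-only distal ones. At short range the order was the other way, with one within 100 bp of 1.68% (1.19 to 2.38) and 0.477% (0.372 to 0.611), and within 500 bp of 5.26% (4.33 to 6.38) and 3.81% (3.50 to 4.16).

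Of 38 genes in a list of AP-1, ATF and immediate early factors, 8 had a control-only promoter peak, 21.1% (11.1 to 36.3) against 8.26% of all genes and 13.7% of genes with a high CpG TSS, a class that holds 36 of the 38 and a value within the interval of the list. Of those 36 genes, 7 or 19.4% had such a peak. Shared peaks lay at 8 of the 38 as well and bexarotene-only peaks at 6, against 2.68% of all genes for each class, so that the list was not particular to control-only peaks. Of the 8 genes, 4 had no p300 promoter interval in bexarotene, where 91.8% of all 1849 genes with a control-only peak had none. Myc, the proto-oncogene, had a control-only peak 174 bp upstream of its TSS and 79 bp from a bexarotene interval, and another 13 bp downstream that control myogenin overlapped. At Creb5 and Ddit3, which encode bZIP factors, the peak was centered on the TSS and lay 39 and 116 bp from a bexarotene interval. At Jund, an AP-1 subunit gene, the gap was 252 bp. Fos, Junb, Klf4 and Mafk had no bexarotene p300 promoter interval. Fos, Jund, Klf4, Mafk and Myc are named here after their values were seen.

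Some genes carried more than 1 control-only peak. There were 142 genes with 2 and 13 with 3 or more, and at 80 of these 155 genes peaks lay on both sides of the same TSS. The 4 genes named after Tgif1 are the first by name of 12 genes with 3 peaks each. Tgif1, a homeobox corepressor in TGF-beta signaling, had 4, with lengths of 159 to 482 bp and no bexarotene p300 interval nearer than 12020 bp. A control myogenin interval overlapped 1 of the 4 and bexarotene myogenin intervals overlapped 2 others. Cic, which encodes the repressor capicua, had 3, each 285694 bp or more from a bexarotene interval. Fscn1, an actin-bundling protein gene, and 1190002N15Rik also had 3. Asap1 had 3 as well, beside a shared promoter peak.

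The promoters themselves were mostly CpG rich. A TSS was called high CpG when the observed over expected CpG ratio of the 1 kb around it exceeded 0.6. A control-only peak lay within 1 kb of 12.7% (12.2 to 13.1) of 20719 high CpG TSSs, 5.14% of middle and 2.35% (2.14 to 2.58) of low CpG TSSs. At the level of genes, 13.7% (13.1 to 14.3) of 11090 genes with a high CpG TSS and 2.94% of the others had such a peak. Genes with 3 or more annotated TSSs had one more often than genes with 1, at 13.1% and 5.60%. Each further TSS adds a window in which a peak can be counted, and its part in this difference was not tested. Head-to-head promoters, with an opposite protein-coding TSS within 1 kb upstream, had a control-only peak at 12.7% against 6.89% of other TSSs, but within the high CpG class the shares were 13.6% (12.5 to 14.8) and 12.5% (12.01 to 12.99).

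Base composition of the 200 bp around the center did not separate control-only from shared promoter peaks. The median GC content was 64.0% and 64.5% and the median CpG ratio 0.778 and 0.782. Bexarotene-only promoter peaks were richer, at 66.5% and 0.863, and control-only distal peaks were far poorer, at 46.0% and 0.189. All 45982 protein-coding TSS positions had medians of 59.0% and 0.607. The control-only share of control promoter peaks was 75.9% at a CpG ratio over 0.6, 78.0% between 0.4 and 0.6 and 74.8% under 0.4, with overlapping intervals.

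Consensus letters were searched in the 200 bp window of each peak, on either strand: GGGCGG for Sp1, TGACG for Atf factors, TGACGTCA for CRE, TGACTCA or TGAGTCA for AP-1, CCGGAAG for ETS, ACCAAT or GCCAAT for NF-Y, ATGGCGG for YY1, CACGTG for USF and Myc, CAGCTG and CACCTG or CAGGTG for E-boxes, TGTGGT for Runx, GGAATG for Tead, AGGTCA for nuclear receptors, and NRF1, DR1, MEF2 and CArG by their usual consensus. TGACG lies within CRE, and AGGTCA can lie within DR1. A match is a description of the sequence and does not show binding.

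Sp1 letters were the most frequent of these in control-only promoter peaks, at 46.7% (44.5 to 49.0) against 38.5% of 200 bp windows at all TSS positions, 49.1% (45.1 to 53.1) of shared and 56.1% (51.9 to 60.1) of bexarotene-only promoter peaks. ETS letters were in 10.9% (9.56 to 12.4), against 8.59% at all TSSs and 14.3% (11.6 to 17.4) in bexarotene-only peaks. NRF1 letters were in 3.69% and 8.14% of control-only and bexarotene-only peaks and in 4.48% of all TSS windows. TGACG was in 18.8% (17.0 to 20.6) of control-only promoter peaks and 18.4% of all TSS windows. In shared promoter peaks its share was 20.9% (17.8 to 24.3), and in bexarotene-only ones 27.7% (24.1 to 31.5). AP-1 heptamers were in 7.59% (6.47 to 8.89) of control-only promoter peaks, above the 2.61% of all TSS windows, below the 12.6% (10.2 to 15.6) of shared promoter peaks, and far below the 29.7% of control-only distal peaks. In bexarotene-only promoter peaks they were in 4.70% (3.23 to 6.80), an interval above the TSS windows that overlaps that of control-only peaks. CAGCTG was in 15.6% (14.0 to 17.3) of control-only promoter peaks, against 12.5% at all TSSs and 24.0% at control-only distal peaks. The other E-box letters, CACCTG or CAGGTG, went the other way, at 9.71% (8.44 to 11.1) against 14.9% of all TSS windows, and NF-Y letters were in 8.73% against 16%. Both shares also lay below the TSS windows in shared promoter peaks, with 9.40% and 9.57%, and in bexarotene-only ones, with 9.04% and 11.9%. AGGTCA was in 8.03% of control-only and of shared promoter peaks, and in 8.87% of all TSS windows. CArG was in 0.868% and MEF2 in 0.488%, against 0.752% and 0.215% of TSS windows. DR1 was in 0.108%, the 2 peaks printed above, against 0.0848% of TSS windows.

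The 1844 divided by CpG ratio into peaks with unlike letters. In the 1220 with a ratio over 0.6, Sp1 letters were in 62.6%, ETS in 14.7% and YY1 in 8.77%, while AP-1 was in 2.13% and Runx in 6.23%. In the 383 with a ratio under 0.4, Sp1 was in 8.88% and ETS in 2.09%, while AP-1 was in 22.2% (18.3 to 26.6), Runx in 27.9%, Tead in 21.7% and CAGCTG in 27.9% (23.7 to 32.6). Control-only distal peaks held AP-1 in 29.7% (28.9 to 30.4), above these CpG-poor promoter peaks, and Runx in 31.2%, Tead in 19.2% and CAGCTG in 24.0%, within their intervals. At a ratio of up to 0.6, AP-1 was in 18.3% (15.4 to 21.5) of 624 control-only and 31.0% (24.9 to 37.7) of 197 shared promoter peaks, and CAGCTG in 24.0% and 30.5% (24.5 to 37.2). CpG ratio moves with the base composition that the letters need, and the part of base composition in these shares was not tested.

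**Figure D3:**
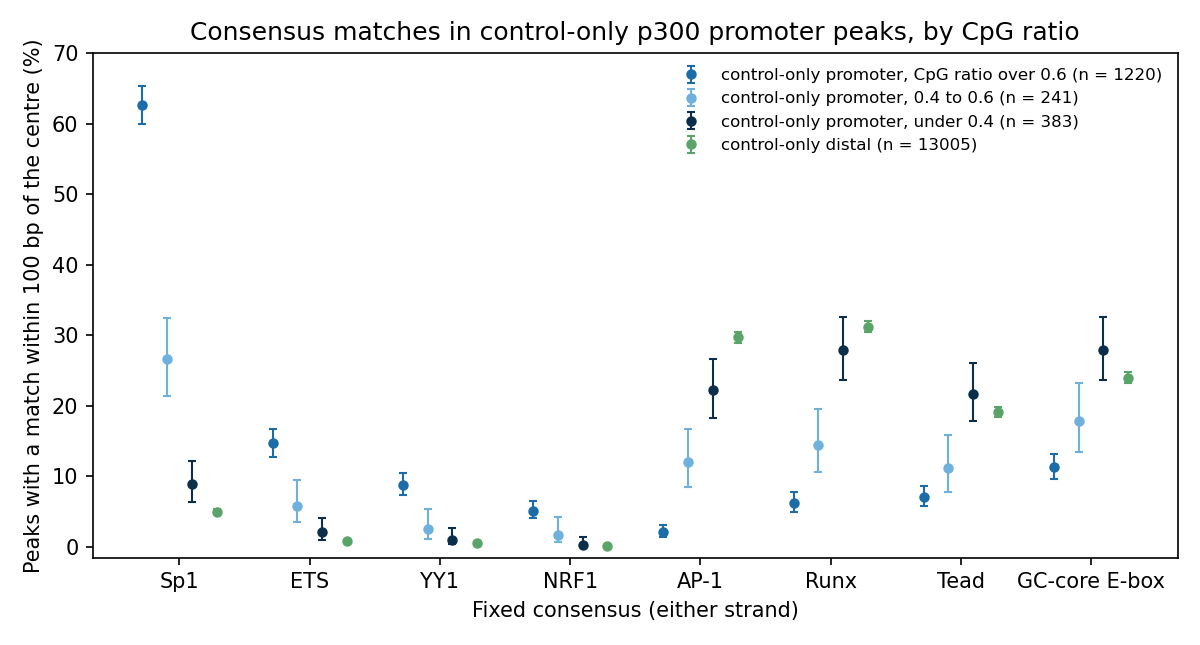
Share of peaks with a consensus match within 100 bp of the center (y axis, %) for 8 consensus sequences (x axis), in control-only promoter peaks by CpG ratio and in control-only distal peaks, with 95% Wilson intervals. The GC-core E-box is the one with GC at its center. Sp1 fell from 62.6% to 8.88% with the CpG ratio, whereas AP-1 rose from 2.13% to 22.2%.

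Position showed the same division. Within 100 bp of the TSS 60.9% of the 752 peaks held Sp1 letters, 17.2% ETS and 4.52% AP-1. More than 400 bp upstream, 21.2% of 226 peaks held Sp1, 3.98% ETS and 16.4% AP-1, and more than 400 bp downstream 27%, 3.06% and 13.8% of 196 peaks did.

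Myogenin, whose lists the choice of peaks did not use, was rarely at these sites. A control myogenin interval overlapped 93 of the 1844, 5.04% (4.13 to 6.14), and a bexarotene myogenin interval overlapped 75, 4.07% (3.26 to 5.07). Shared promoter peaks were overlapped in 9.74% (7.60 to 12.4) and 9.57% (7.44 to 12.2), bexarotene-only promoter peaks in 5.79% (4.13 to 8.05) and 3.98% (2.64 to 5.95), and control-only distal peaks in 4.77% (4.41 to 5.15) and 6.43% (6.02 to 6.86). A control myogenin interval lay within 500 bp of 12% (10.6 to 13.6) of the 1844, of 18.8% (15.8 to 22.2) of shared and of 16.8% (13.9 to 20.2) of bexarotene-only promoter peaks. At a CpG ratio of up to 0.6 a control myogenin interval overlapped 5.93% (4.33 to 8.07) of control-only and 17.3% (12.6 to 23.2) of shared promoter peaks. Over 0.6 the shares were 4.59% (3.55 to 5.91) and 5.93% (3.98 to 8.74), with overlapping intervals. The longer length of shared peaks gives them more room to overlap and moved with this difference, and its part was not tested. Among control-only promoter peaks over 300 bp the share was 9.59% (5.80 to 15.5) of 146.

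Both myogenin lists overlapped 31 of the 1844, the control list alone 62 and the bexarotene list alone 44. Peaks with a control myogenin interval held CAGCTG in 33.3% (24.6 to 43.4) of cases and those without one in 14.7% (13.1 to 16.4). The longest with myogenin in both conditions were at Rdh5 (433 bp), Mfsd2a (370 bp), a lysolipid transporter gene, Tob2 (365 bp), an antiproliferative gene, Pacs2 (364 bp) and Slc26a9 (280 bp), an anion transporter gene. Rdh5 also had a bexarotene-only p300 promoter peak, and the nearest bexarotene p300 interval lay 1058 bp away, and at Slc26a9 it lay 579 bp away.

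Nuclear receptor genes had a control-only promoter peak more often than any other of the 24 gene lists. Of 33 genes of RXR and nuclear receptor signaling 11 had one, 33.3% (19.8 to 50.4), against 8.26% of all protein-coding genes and 13.7% of genes with a high CpG TSS, and 10 of its 28 high CpG genes did, 35.7%. Of the 33, 18 have 3 or more TSSs, a class in which 13.1% of all genes had such a peak. Shared promoter peaks lay at 3 genes of the list, 9.09%, which were Ppard, Rara and Vdr, and bexarotene-only ones at 2, 6.06%, which were Ncoa2 and Rara, both above the 2.68% of all genes. None of the 11 had a p300 promoter interval in bexarotene, where 91.8% of all 1849 genes with a control-only peak had none. The list was written with earlier results of these data known, so that its rank is a description.

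Of the receptors, Rarg, a retinoic acid receptor gene, had a peak of 199 bp centered 88 bp downstream of a TSS at mm9 chr15:102076744-102076942, in a 5′ UTR. Rxra and Rxrb, which encode receptors on which bexarotene acts, had peaks of 159 bp. These were centered 338 and 89 bp downstream of a TSS, 9555 and 89456 bp from the nearest bexarotene interval. Rxrg, the other RXR gene of the list, had no control-only promoter peak. Pparg had a peak at each of a pair of alternative starts, 65 bp upstream of one (159 bp long) and 932 bp upstream of another (223 bp long). Nr4a3, an orphan receptor gene, had a peak 95 bp upstream.

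Of the coregulators, the coactivator gene Ncoa3 had a peak of 252 bp at mm9 chr2:165818054-165818305, 43 bp downstream of a TSS and 123204 bp from a bexarotene interval. The corepressor gene Ncor1 had a peak of 159 bp lying 751 bp downstream of a TSS. Of the target and metabolic genes, Dhrs3 had a peak of 204 bp lying 348 bp upstream, Angptl4, which encodes an inhibitor of lipoprotein lipase, a peak of 307 bp lying 885 bp downstream in an intron and 897 bp from a bexarotene interval, and Tgm2, a transglutaminase gene, a peak of 159 bp lying 6 bp upstream. Across the 12 peaks at these 11 genes, 7 were of the smallest length, 9 were over 10 kb from a bexarotene interval, 3 held AGGTCA and 0 were overlapped by myogenin. Over all 1844, 62.6% were of the smallest length, 21.4% had a bexarotene interval within 10 kb, 8.03% held AGGTCA and 5.04% were overlapped by control myogenin, so that the counts of length, distance and myogenin are near the shares of the whole, and that of AGGTCA rests on 3 peaks. Rxra, Rxrb, Nr4a3 and Tgm2 are named here after their values were seen.

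**Figure D4:**
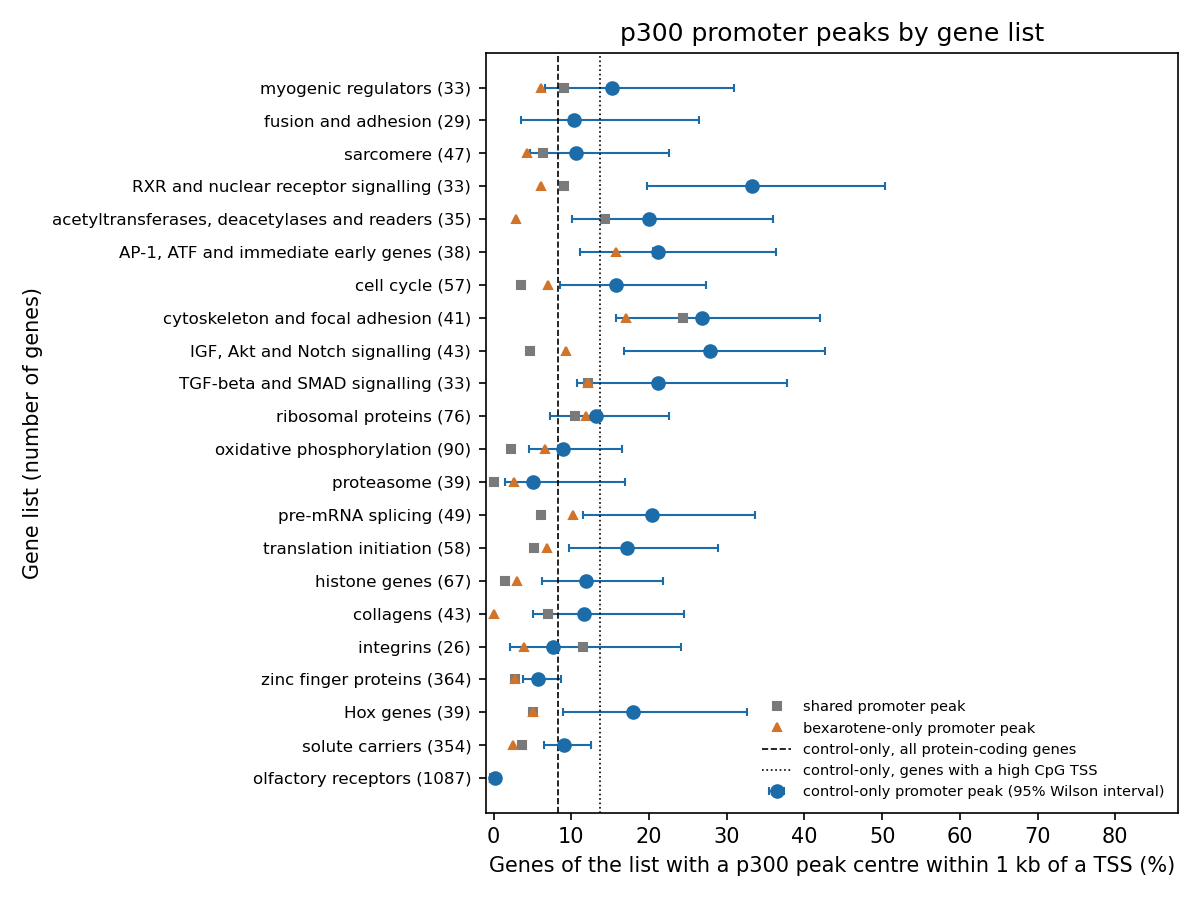
Share of the genes of each list with a p300 peak centered within 1 kb of a TSS (x axis, %), for control-only (points with 95% Wilson intervals), shared and bexarotene-only peaks, with the number of genes in brackets (y axis). The dashed line is the 8.26% of all protein-coding genes and the dotted line the 13.7% of genes with a high CpG TSS, and the nuclear receptor list is highest at 33.3%.

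Signaling genes of muscle growth followed. Of 43 genes of IGF, Akt and Notch signaling 12 had a control-only promoter peak, 27.9% (16.7 to 42.7). The share was 8.26% of all genes and 13.7% of genes with a high CpG TSS, and 11 of the 38 high CpG genes of the list had one, 28.9%. Of the 43, 18 have 3 or more TSSs, a class in which 13.1% of all genes had such a peak. A shared peak lay at 2 of the 43, 4.65%, and a bexarotene-only peak at 4, 9.30%, both above the 2.68% of all genes. The 12 genes with a control-only peak were Adam17 and Notch2, Igf1, its receptor gene Igf1r, the docking proteins Irs1 and Irs2, the PI3 kinase genes Pik3ca, Pik3cb and Pik3r1, Akt2, Rictor and the transcription factor gene Foxo1. Irs1 had a peak of 430 bp lying 350 bp downstream of the TSS and another of 323 bp lying 290 bp upstream. Notch2, a receptor gene, had a peak of 375 bp lying 22 bp upstream. Adam17 and Pik3r1 also had a bexarotene-only promoter peak, and their control-only peaks lay 386 and 96 bp from a bexarotene interval. Of the 13 peaks, 10 were over 10 kb from a bexarotene interval and 1, at Akt2, was overlapped by myogenin, in both conditions, counts near the shares over all 1844.

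In the TGF-beta and SMAD list 7 of 33 genes had a control-only promoter peak, 21.2% (10.7 to 37.8). The list holds 29 genes with a high CpG TSS, and the 13.7% of that class lies within its interval. Shared peaks lay at 4 of the 33 and bexarotene-only peaks at 4, 12.1% in each case against 2.68% of all genes, so that the list was not particular to control-only peaks. Among them were Acvr1, a BMP type I receptor gene, with a peak of 266 bp, and the inhibitory SMAD gene Smad7, with a peak of 524 bp that control myogenin overlapped. The acetylation list held 7 of 35 genes with a control-only promoter peak, 20% (10.0 to 35.9). That interval includes the 13.7% of genes with a high CpG TSS. Shared peaks lay at 5 of the 35, 14.3%, and bexarotene-only peaks at 1, 2.86%, against 2.68% of all genes for each class. Among the 7 was Ep300, the gene of p300 itself, with 2 control-only peaks of 159 and 393 bp, 119289 bp or more from any bexarotene p300 interval. Brd2, a bromodomain reader gene, had a peak of 323 bp and Hdac7, a class II deacetylase gene, one of 223 bp, and both also had a shared promoter peak.

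Lists of muscle identity genes had shares whose intervals include the 8.26% of all genes. Of 33 myogenic regulators 5 had a control-only promoter peak, 15.2% (6.65 to 30.9), an interval that also includes the 13.7% of genes with a high CpG TSS: Eya1, Mef2a, Mef2d, Tcf4, which encodes an E protein, and Twist2, a bHLH inhibitor of myogenesis. Eya1 and Tcf4 had 2 each. Of 47 sarcomere genes 5 did, 10.6% (4.63 to 22.6): Ldb3, Tnnc2, Tnnt1, Tpm1 and Tpm2. A high CpG TSS belongs to 5 of the 47. Of the other 42 genes 4 had such a peak, 9.52% (3.77 to 22.1), and the 2.94% of all genes with no high CpG TSS lies below that interval. Of the 47, 23 have 3 or more TSSs, a class in which 13.1% of all genes had such a peak. The part of the number of TSSs in the share of the list was not tested. Shared peaks lay at 3 of the 47 and bexarotene-only peaks at 2. The peak of Tpm2, a tropomyosin gene, lay 40 bp from a bexarotene interval, and Tpm1 also had a shared peak. In the fusion and adhesion list 3 of 29 did, with Jam2 (367 bp), Kirrel (354 bp), which encodes an immunoglobulin adhesion protein, and Ncam1 (159 bp), whose peak control myogenin overlapped.

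Among the other lists, cytoskeleton and focal adhesion had a control-only promoter peak at 11 of 41 genes, 26.8% (15.7 to 41.9). Shared peaks lay at 10 of the 41, 24.4%, and bexarotene-only peaks at 7, 17.1%, against 2.68% of all genes for each class. The list was thus not particular to control-only peaks. Its longest control-only peaks were at Actn4 (340 bp), an actinin gene, Myh9 (321 bp), non-muscle myosin heavy chain, and Ptk2 (259 bp), focal adhesion kinase. Splicing factors had one at 10 of 49 genes, 20.4%, Hox genes at 7 of 39, 17.9%, and translation initiation factors at 10 of 58, 17.2%. Cell cycle genes had one at 9 of 57, 15.8%, and ribosomal protein genes at 10 of 76, 13.2% (7.31 to 22.6). The share was 8.26% of all genes and 13.7% of genes with a high CpG TSS, a class that holds 48 of the 49 splicing and 75 of the 76 ribosomal genes. Shared and bexarotene-only peaks lay at 6.12% and 10.2% of splicing and 10.5% and 11.8% of ribosomal genes. In the Hox, translation and cell cycle lists both classes were also above 2.68%, so that none of these lists was particular to control-only peaks. The translation list was matched by name and counts Eif2ak4, a kinase, and Eif2c1, an Argonaute protein. The cell cycle peaks included Cdk7 (286 bp), Cdk2 (159 bp) and Gadd45g (159 bp), and the ribosomal ones Rpl36a (321 bp), Rpl18 (273 bp) and Rpl7 (250 bp). Histone genes were at 11.9%, collagens at 11.6%, solute carriers at 9.04%, oxidative phosphorylation at 8.89%, integrins at 7.69%, zinc finger genes at 5.77% and the proteasome at 5.13%. Olfactory receptor genes, expressed mainly in olfactory neurons, had one at 2 of 1087, 0.184% (0.0505 to 0.668).

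Marker genes of the labelled cell type and of other cell types were looked up, as a description only. A control p300 interval lay within 10 kb of 5 of 8 myoblast markers and a myogenin interval of either condition near 6 of 8. Myf5, Myog and Ttn had no control p300 interval, and Myf5 and Des had no myogenin interval. The share of all genes with an interval within 10 kb was not counted, so that these counts do not check the cell type. Of 8 markers of other cell types 6 had no control p300 interval, while Adipoq, an adipocyte gene, had 2 and Cdh1, the epithelial cadherin gene, had 1. A myogenin interval lay near 1 of these 8, Cdh1, in both conditions. None of these 16 genes had a control-only promoter peak, where 8.26% of all protein-coding genes had one.

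Chromosomes differed in how often their promoters carried such a peak. Control-only promoter peaks numbered 8.30 per 100 TSS positions on chromosome 15, the highest, against 1.90 on chromosome 7 and 0.66 on chromosome X, which held 13 of the 1844. The order held among high CpG TSSs, with a peak within 1 kb of 21.7% on chromosome 15, 7.24% on chromosome 7 and 1.96% on chromosome X. Shared promoter peaks followed, at 2.83, 0.275 and 0.0507 per 100 TSS positions. C2C12 is a line kept in culture for long, and its copy number per chromosome was not measured here, so that copy number and occupancy cannot be told apart. The control-only share of control promoter peaks ranged from 69.2% (60.8 to 76.5) on chromosome 8 to 92.9% (68.5 to 98.7) on chromosome X, where it rests on 14 peaks.

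**Figure D5:**
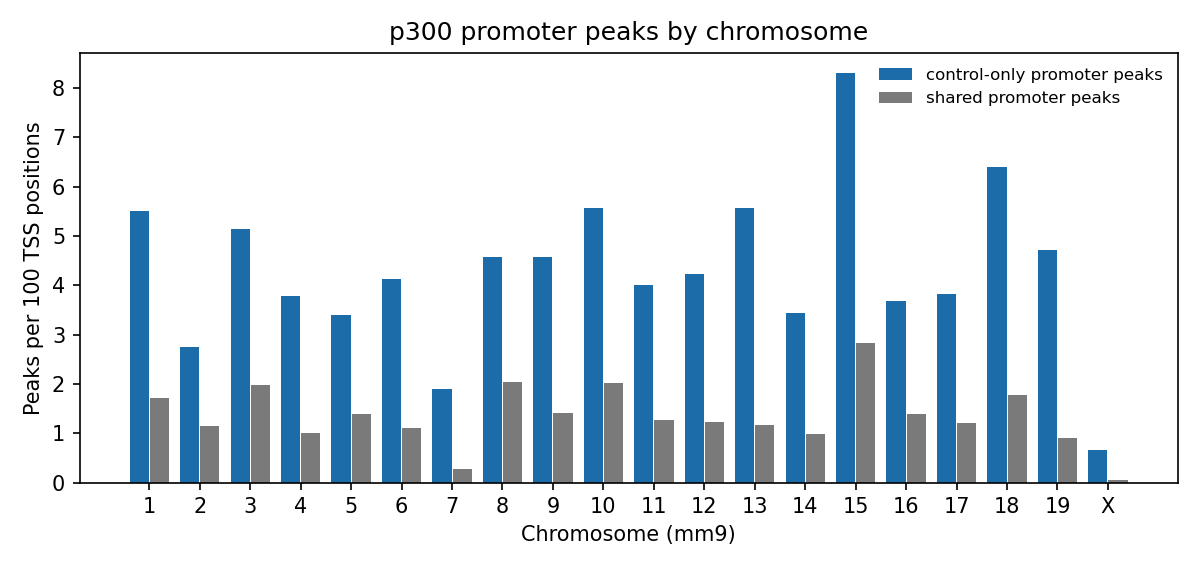
Number of control-only and shared p300 promoter peaks per 100 protein-coding TSS positions (y axis) by chromosome of mm9 (x axis). Chromosome 15 is highest in both classes, at 8.30 and 2.83, and chromosome X is lowest, at 0.66 and 0.0507.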

How the data were processed

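p300 and myogenin ChIP-seq libraries of differentiating C2C12 cells, 1 per condition, gave the 4 interval lists used. The 2 input and 2 H3K27me3 samples were not used. Per the methods of the study and the submitters' processing notes, the authors aligned p300 reads with Bowtie and myogenin reads with BWA to mm9, removed duplicates with Picard and called peaks in each library with HOMER. The deposited lists hold positions in bp and no counts or scores, so the threshold could not be varied and depth is unknown. Starts were read as counted from 0 and positions are printed counted from 1. Read as counted from 1, the Snrnp35 peak would overlap a bexarotene interval and no longer be control-only.

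Overlaps needed 1 bp. TSS distances used the midpoint of each interval and the protein-coding transcripts of GENCODE M1 on NCBIM37 (mm9), which have 46035 start records at 45982 positions in 22378 genes. Sequences came from the same genome assembly. CpG observed over expected was computed over 200 bp at peaks and 1 kb at TSSs. Scripts used Python 3.11.15, pandas 2.3.3, numpy 2.4.6 and pysam 0.24.0, and were tested on simulated intervals and sequences. Shares carry 95% Wilson intervals, which do not cover variation between cultures, and shared TSSs and neighboring peaks make peaks less than independent.

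The peaks, gene lists and consensus letters were chosen with earlier results of these data known. Genes were named by rule: the 8 longest peaks, up to 6 per list of muscle and nuclear receptor genes and 3 per other explicit list by length, the 5 genes with most peaks, the 5 longest peaks with myogenin in both conditions, and those at the limits of the choice; all other genes named were picked after their values were seen. Ties in the number of peaks went by name. Alternatives changed the overlap rule, the distance to the TSS, the transcripts, the smallest intervals, chromosome 8, the myogenin distance and the motif window. RefSeq promoter sequences of another assembly were not used. Some genes of the lists enter the counts and are not reported here by name.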

Additional observations from a re-analysis of the deposited data

How the results depend on the processing

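With 1 library per condition no replicate could be left out. No paired analysis was possible because each group has 1 sample and no result comes from a test. A stricter peak threshold could not be applied to lists without scores. Of 36 alternative values, 19 stayed within the 95% interval of the share, or within 1.5 times the count, and 17 moved. Leaving out chromosome 8 moved none of the 6 results. Using only intervals longer than the smallest of each list lowered the number of control-only promoter peaks from 1844 to 899, raised their share of control promoter peaks from 75.9% to 80.2% and the myogenin overlap from 5.04% to 6.34%, and lowered the downstream share from 45.6% to 39.9% and the share of genes from 8.26% to 4.09%. Dropping the smallest bexarotene intervals as well makes shared peaks control-only here: of the same 1121 longer control promoter intervals, 61.5% met no interval of the full bexarotene list. The control-only share was 81.9% with a reciprocal overlap of 50%, 71.9% when a bexarotene interval within 500 bp counted as overlap, and 74.1% with all transcript starts. Sp1 letters were in 52.3% at a TSS distance of 500 bp, 40.1% at 2 kb, 41.0% with all transcript starts and 29.2% within 50 bp of the center. At 2 kb, 48.2% lay downstream of the TSS. The share of genes was 6.96% at 500 bp, 9.88% at 2 kb and 8.80% with all transcript starts. Myogenin within 500 bp was found at 12%. A change of window, distance or transcripts alters which peaks and letters are counted, and its part in the moved shares was not tested. Depth could not be judged from positions alone.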
